A study of Arabidopsis thaliana with 4 samples.

Results

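Genes imprinted in the endosperm are often flanked by methylated DNA, and here 7 of them were followed in the shoot apex. They were MEA (AT1G02580), FIS2 (AT2G35670), HDG3 (AT2G32370), HDG8 (AT3G03260), HDG9 (AT5G17320), PHE1 (AT1G65330) and MPC (AT3G19350). The choice was made by name for their imprinted expression and not by any measured value, though with earlier results of these data known. They are 7 of 27444 protein-coding genes of the annotation. Each was taken as the annotated gene with 2 kb on either side, called the upstream flank before the gene start and the downstream flank after the gene end, in the direction of transcription.

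The assay was enzymatic methyl-seq (EM-seq), where enzymes convert cytosines without methylation so that the sequencer reads T. The treated plants received 1 mM of the nitric oxide donor sodium nitroprusside (SNP) in 0.025% of the wetting agent Silwet and were sampled after 24 h, and the mock plants received 0.025% Silwet without the donor for the same time. There were 2 SNP and 2 mock libraries of shoot apices. The labels give the genotype of all 4 as Col-0, while the study's methods name apices of ap1/cal, a double mutant whose inflorescence meristems proliferate and arrest, with Col-0 as its background. No label says whether the 2 libraries of a treatment came from separate batches of plants, so p-values measure at most the spread between these libraries. Expression was not measured in these libraries, and the tissue could not be checked against marker genes.

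In imprinted genes 1 parental copy is expressed and the other is silent. The endosperm, the nourishing tissue of the seed, is where this is best known in plants: the DNA glycosylase DME removes methylated cytosines from the maternal genome in the central cell before fertilisation, so that maternal and paternal copies differ in methylation. MEA, FIS2, HDG8, HDG9 and MPC are known as maternally expressed and HDG3 and PHE1 as paternally expressed. Plants methylate cytosines in the contexts CG, CHG and CHH, where H stands for A, C or T. MET1 copies CG methylation at replication, CMT3 maintains CHG methylation, and CHH methylation has to be set anew by DRM2, guided by small RNAs and AGO4, or by CMT2. A shoot apex holds no endosperm, and reads of both parental copies are counted together.

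The lists give, for each library, the cytosines called methylated, with their methylation level (the percentage of reads methylated there) and their depth. Over the 5 nuclear chromosomes the libraries listed between 3857352 and 4134559 cytosines, from 42221751 to 50875710 reads in all, with a median depth of 8 to 10 reads. The 7 loci held 17357 cytosines on both strands, of which 1852 were listed in at least 1 library and 672 in all 4. Of the 672, 331 were CG, 105 CHG and 236 CHH cytosines. The numbers listed at the 7 loci were 1064 in SNP 1, 1080 in SNP 2, 1071 in mock 1 and 1196 in mock 2. Another 799 cytosines were listed in a single library only, 656 of them in CHH context. At the 672 shared cytosines the median depth was 9 and 10 in the SNP libraries and 11 and 11 in the mock libraries, and no cytosine of the 7 loci had more than 27 reads.

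The cytosines listed in all 4 libraries were not spread over the loci but lay in short stretches, mostly in 1 flank. A stretch of the TAIR10 genome rich in them is shown here for each member, read in the direction of the gene, because the context and spacing of the methylated cytosines carry the differences between the members described below. Capitals mark each base whose cytosine, on the printed or the opposite strand (a capital G), was listed in all 4 libraries. For MEA 2 of its tandem repeat units are given, unit 1 at chr1:549648-549843 and unit 6 at chr1:550574-550742, both on the plus strand. For the other members it is the 200 bp of either flank with the most such cytosines. The plus strand is printed for FIS2 (chr2:14991685-14991884), HDG3 (chr2:13740048-13740247) and MPC (chr3:6705184-6705383), and the minus strand for HDG8 (chr3:760313-760512), HDG9 (chr5:5702799-5702998) and PHE1 (chr1:24264887-24265086). None of these windows overlapped an annotated gene.
MEA downstream, unit 1: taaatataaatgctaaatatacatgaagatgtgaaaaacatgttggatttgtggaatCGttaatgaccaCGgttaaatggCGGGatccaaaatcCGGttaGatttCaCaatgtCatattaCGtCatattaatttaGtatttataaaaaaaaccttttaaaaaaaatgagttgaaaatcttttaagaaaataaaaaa
MEA downstream, unit 6: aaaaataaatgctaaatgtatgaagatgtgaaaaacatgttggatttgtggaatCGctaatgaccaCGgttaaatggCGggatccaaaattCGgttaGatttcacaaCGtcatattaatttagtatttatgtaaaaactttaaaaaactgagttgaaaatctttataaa
FIS2 upstream: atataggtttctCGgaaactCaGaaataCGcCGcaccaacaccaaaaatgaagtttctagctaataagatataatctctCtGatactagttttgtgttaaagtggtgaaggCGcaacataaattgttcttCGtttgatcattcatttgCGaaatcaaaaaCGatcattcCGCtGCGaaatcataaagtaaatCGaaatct
HDG3 upstream: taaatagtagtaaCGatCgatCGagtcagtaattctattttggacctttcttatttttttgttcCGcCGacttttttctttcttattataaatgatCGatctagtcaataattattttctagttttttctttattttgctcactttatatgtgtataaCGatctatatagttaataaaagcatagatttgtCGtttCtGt
HDG8 upstream: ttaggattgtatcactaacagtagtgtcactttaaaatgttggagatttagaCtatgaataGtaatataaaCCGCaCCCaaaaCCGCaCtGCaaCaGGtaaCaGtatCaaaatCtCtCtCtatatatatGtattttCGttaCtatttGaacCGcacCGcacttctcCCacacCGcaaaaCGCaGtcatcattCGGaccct
HDG9 downstream: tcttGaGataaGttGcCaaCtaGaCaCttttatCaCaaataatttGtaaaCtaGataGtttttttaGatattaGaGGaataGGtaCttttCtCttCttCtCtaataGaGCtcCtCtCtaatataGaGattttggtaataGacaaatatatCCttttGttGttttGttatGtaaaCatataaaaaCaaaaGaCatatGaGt
PHE1 downstream: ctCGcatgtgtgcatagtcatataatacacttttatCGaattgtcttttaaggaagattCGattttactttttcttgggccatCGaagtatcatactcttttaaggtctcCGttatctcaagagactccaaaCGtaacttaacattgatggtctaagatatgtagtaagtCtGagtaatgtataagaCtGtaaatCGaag
MPC upstream: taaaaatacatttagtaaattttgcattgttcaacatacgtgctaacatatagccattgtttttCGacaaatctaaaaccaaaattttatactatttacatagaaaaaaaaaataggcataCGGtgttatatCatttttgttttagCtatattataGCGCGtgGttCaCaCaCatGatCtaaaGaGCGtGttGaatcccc

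The printed windows differed in the contexts they held. In FIS2, 20 of 20 CG cytosines were capital, 6 of 9 CHG cytosines and 0 of 41 CHH cytosines. In HDG3 the numbers were 15 of 16 CG, 2 of 6 CHG and 0 of 32 CHH cytosines, and in PHE1 14 of 14 CG, 4 of 5 CHG and 0 of 50 CHH cytosines. These 3 windows were thus methylated mainly at CG. The HDG8 window was methylated in every context, with 16 of 16 CG, 11 of 16 CHG and 19 of 46 CHH cytosines. The HDG9 window held neither a CG nor a CHG cytosine, and 48 of its 54 CHH cytosines were listed in all 4 libraries. The MPC window had 10 of 12 CG, 1 of 1 CHG and 14 of 46 CHH cytosines.

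**Figure D1:**
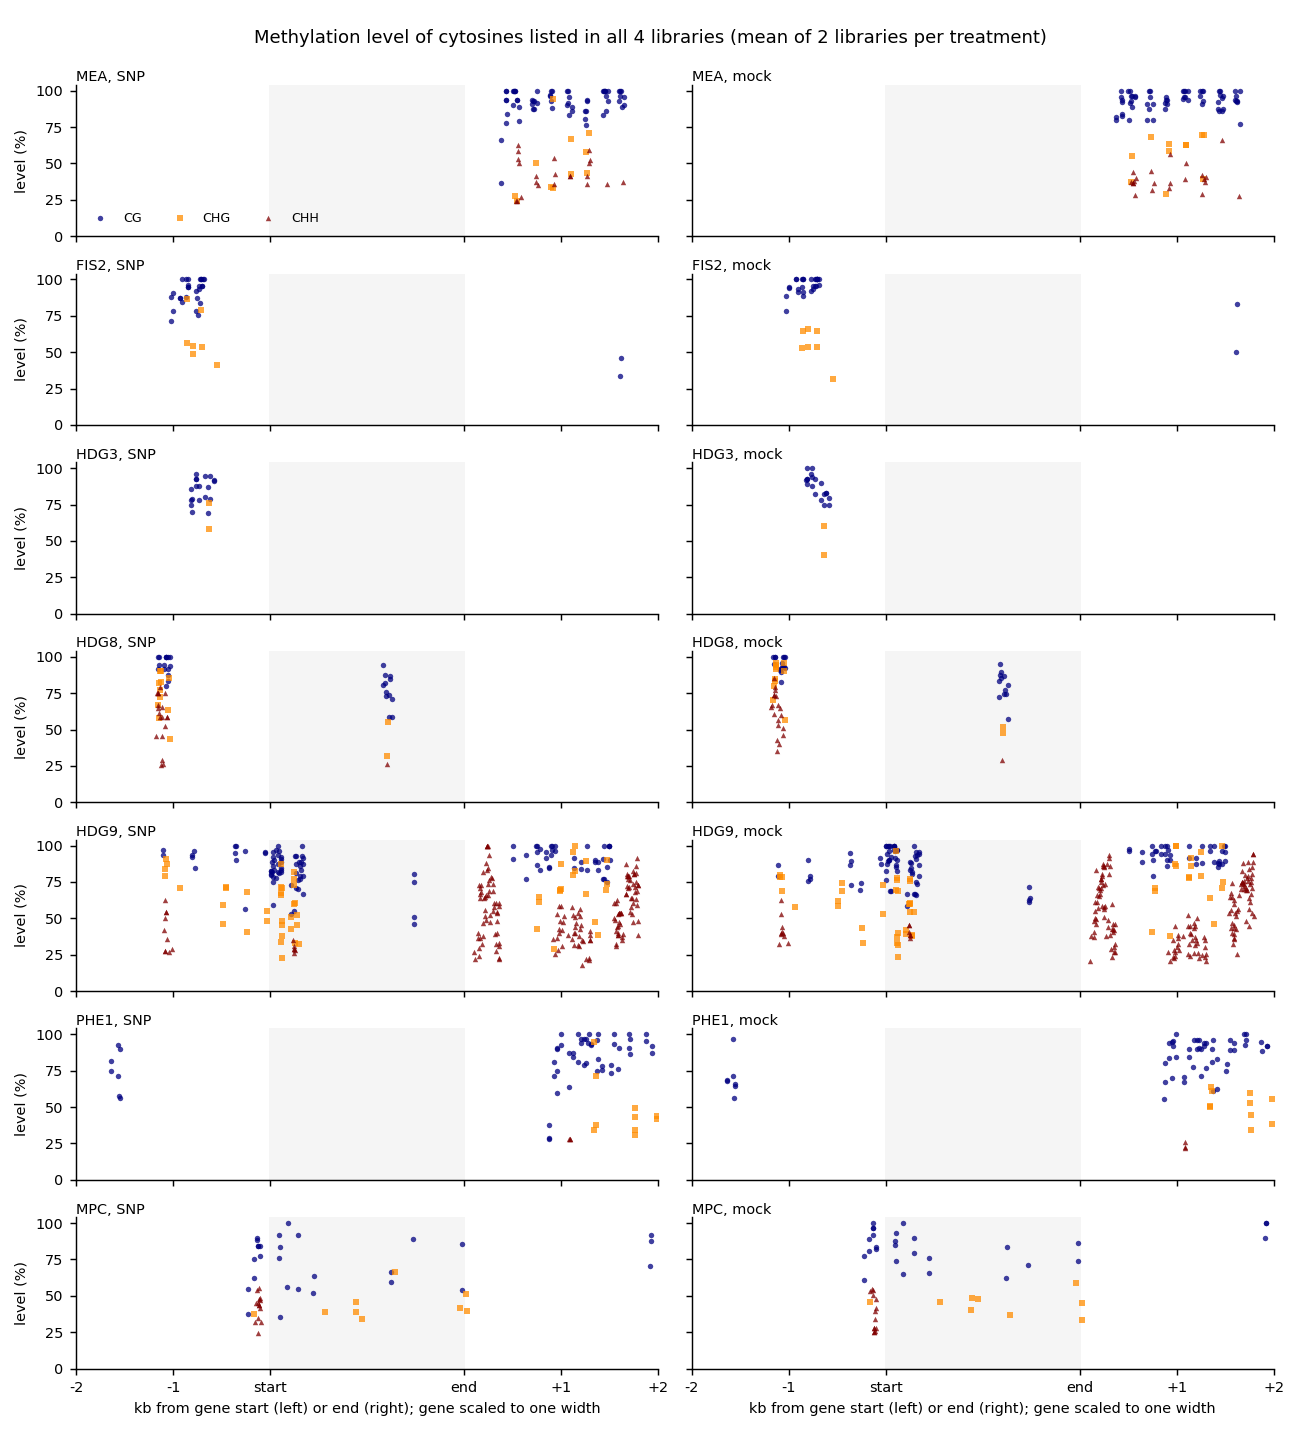
Each point is a cytosine listed in all 4 libraries, placed by its distance in kb from the gene start or gene end (x axis, the gene drawn at 1 width in grey) and by its methylation level in % (y axis, mean of the 2 SNP libraries on the left and of the 2 mock libraries on the right). Colours and symbols give the context. MEA and PHE1 carry their points after the gene, FIS2, HDG3 and HDG8 before it, HDG9 on both sides and within the gene, and MPC around the gene start.

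MEA encodes the histone methyltransferase of the seed's Polycomb complex, which silences the paternal copy of MEA and other genes in the endosperm. Its methylation lay wholly after the gene. In the upstream flank, 3, 2, 3 and 0 of 82 CG cytosines were listed in SNP 1, SNP 2, mock 1 and mock 2, and none in all 4. In the downstream flank the same 64 of 90 CG cytosines were listed in every library. Within the gene (4470 bp on chromosome 1, 544733 to 549202) no cytosine of any context was listed in all 4 libraries. The downstream cytosines ran from 378 to 1652 bp past the gene end, and the nearest annotated gene on that side, the RNA gene AT1G08805, began at 1799 bp.

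Most of this stretch was a tandem array, of the kind described before as the MEA intergenic repeats. The comparison of the flank with itself split it into 7 units of 169 to 196 bp between 446 and 1713 bp past the gene end. All 56 CG cytosines of the units were listed in all 4 libraries, against 8 CG cytosines of the flank outside the units. Of 27 CHG cytosines in the units 11 were listed in all 4 libraries, and of 239 CHH cytosines 22 were. The longest string present in all 7 units was taatgaccaCGgttaaatg, 19 bases with 1 CG in the middle, both cytosines of which were listed in all 4 libraries in every unit. This string occurred 28 times in the nuclear genome, counting both strands. The array had 126 other matches on 3 chromosomes over at least 100 bp at 80% identity or more. As the array repeats, several matches may fall on the same place, and the number of distinct places is not given. With such matches short reads could be placed ambiguously, and 89 of the 97 shared downstream cytosines lay in bases with such a copy.

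The units were alike in CG level. They were also alike in sequence, so short reads could be placed in another unit, and the effect of this was not tested. Unit 1 had CG levels of 92.3% and 96.3% in SNP 1 and SNP 2, and 97.6% and 88.7% in mock 1 and mock 2. Unit 5 stood apart in a single library, with 77.6% and 94.3% in SNP 1 and SNP 2, and 97.1% and 92.7% in mock 1 and mock 2. The remaining levels lay between 88.9% and 100%, on 35 to 117 reads a unit and library over all units. The non-CG cytosines were less even across the array. CHG cytosines were listed in all 4 libraries in units 1 to 5 but in none of units 6 and 7, and CHH cytosines numbered 7 in unit 1 and 1 each in units 6 and 7.

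**Figure D2:**
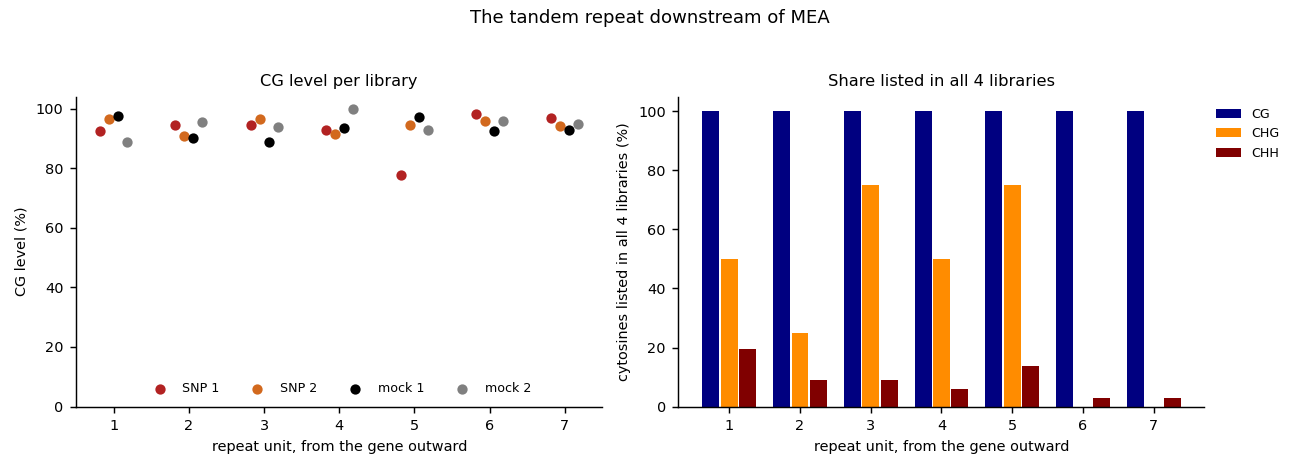
The 7 repeat units downstream of MEA, numbered from the gene outward (x axis). The left panel gives the CG level in % per library, where SNP 1 in unit 5 is the low point at 77.6%; the right panel gives the share in % of CG, CHG and CHH cytosines listed in all 4 libraries, which is 100% for CG in every unit.

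FIS2, a zinc finger protein of the same complex, had its methylation before the gene. In the upstream flank 29, 28, 28 and 28 of 106 CG cytosines were listed in SNP 1, SNP 2, mock 1 and mock 2, 28 of them in all 4. They filled 339 bp between 1025 and 687 bp before the gene start, between FIS2 and the genes AT2G35658 and AT2G08745, whose near ends lay 1629 and 1879 bp away. The stretch had no other copy in the genome. CHG cytosines were listed at 12, 10, 10 and 14 of 73 positions, 7 in all 4 libraries, and no upstream CHH cytosine was listed in all 4. The gene itself had none in any context. Its downstream flank lay wholly within AT2G35680, which overlaps the end of FIS2 by 44 bp, and 2 CG cytosines there were listed in all 4 libraries. The downstream CG cytosines listed numbered 8 and 12 in the SNP libraries and 5 and 3 in the mock libraries, out of 96. The treatments did not overlap in that count, but at 15 cytosines listed in any library the numbers are small. How often this happens over all genes was not counted.

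The 3 HDG genes encode homeodomain leucine zipper (HD-ZIP IV) transcription factors, a class known for epidermal cell fates. HDG3 and HDG8 were methylated before the gene start and HDG9 at every part of the locus. HDG3 had 20 of 56 upstream CG cytosines listed in every library, 19 of them shared by all 4, within 238 bp from 817 to 580 bp before the gene start. Its upstream CHG cytosines were listed at 3, 5, 5 and 4 of 44 positions in SNP 1, SNP 2, mock 1 and mock 2. Its downstream flank was almost bare, with 0, 0, 0 and 2 of 110 CG cytosines and no CHG cytosine listed, and the gene had no shared cytosine.

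HDG8 had 17, 16, 16 and 17 of 58 upstream CG cytosines listed in SNP 1, SNP 2, mock 1 and mock 2. The upstream CHG cytosines were 12, 12, 15 and 15 of 58 and the CHH cytosines 27, 28, 29 and 36 of 427, so that the treatments lay apart in these counts by 3 CHG cytosines and 1 CHH cytosine. How often the treatments lie apart in such counts over all genes was not counted, so the separation has no reference. The SNP libraries also had the lower depth at the 7 loci, as given above, and its part in these counts was not tested. All 46 upstream cytosines shared by the 4 libraries lay in a 181 bp segment with 38 other copies on all 5 chromosomes, which is the segment printed above. Within the gene a second stretch of 193 bp in an intron had 12 CG, 2 CHG and 1 CHH cytosines shared by all libraries. Downstream, 1, 1, 0 and 0 of 82 CG cytosines were listed.

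HDG9 was the most methylated of the 7, with 37 upstream, 81 gene and 220 downstream cytosines shared by all 4 libraries. In the upstream flank 15, 14, 15 and 14 of only 18 CG cytosines were listed in SNP 1, SNP 2, mock 1 and mock 2, and in the downstream flank 45, 41, 44 and 44 of 60. What set the downstream flank apart was the CHH context. There 243 and 242 of 412 CHH cytosines were listed in the SNP libraries and 248 and 245 in the mock libraries, against 29 and 24 of 406 upstream in the SNP libraries and 32 and 52 in the mock libraries. Of the 220 shared downstream cytosines 201 lay in bases with another copy among 39 genomic matches. The part next to the gene, printed above, began 141 bp past the gene end and was methylated at CHH cytosines alone, at a mean level of 60.2% in SNP and 61.0% in mock libraries. In the gene the shared CG cytosines were 39 in coding sequence and 15 in introns, with none in the UTRs.

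PHE1 encodes a MADS domain transcription factor of the endosperm, and its paternal expression is known to need a methylated region after the gene. Its methylation in the apex was mainly downstream, and whether this is the known region was not checked. In that flank 48, 47, 48 and 48 of 82 CG cytosines were listed in SNP 1, SNP 2, mock 1 and mock 2, 47 of them shared, between 870 and 1934 bp past the gene end. The downstream CHG cytosines were 16, 12, 15 and 17 of 44 and the CHH cytosines 22, 40, 24 and 27 of 488. The 7 upstream CG cytosines shared by all libraries lay 1551 to 1640 bp before the gene start, inside the neighbouring gene CYP96A3. No cytosine of the PHE1 gene, a single exon of 1080 bp, was shared by all 4.

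MPC encodes a protein resembling the C-terminal domain of poly(A) binding proteins, and it was the only member methylated across its whole short gene. Of its 16 CG cytosines 15, 16, 16 and 16 were listed in SNP 1, SNP 2, mock 1 and mock 2, with 4 of the shared 15 in the 5′ UTR, 8 in coding sequence and 3 in the 3′ UTR. The stretch began 226 bp before the gene start. In the upstream flank 10, 11, 12 and 12 of 64 CG and 19, 26, 20 and 32 of 526 CHH cytosines were listed in the same order of libraries. Downstream, 3 CG cytosines were shared by all libraries, all within the neighbour AT3G19360.

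The upstream and downstream flanks were then set against each other within each library, as the share of the reference cytosines of a context that was listed. With 4 libraries an exact two-sided sign-flip permutation test over 16 sign patterns cannot go below p = 0.125, so it cannot reach 0.05, and p = 0.125 is what it gave wherever all 4 libraries had the same sign. For CG the upstream share was higher in all 4 libraries in 5 members (FIS2, HDG3, HDG8, HDG9 and MPC), against 35.4% of all genes. It was lower in all 4 in MEA and PHE1, against 39.5% of all genes. Of the members MEA had the widest CG difference, with -67.5 and -68.7 percentage points upstream minus downstream in SNP 1 and SNP 2, and -67.5 and -71.1 points in mock 1 and mock 2. Its mean of -68.7 ± 1.72 points (SD, n = 4) was undercut by 1.88% of genes. PHE1 differed by -48.6 ± 1.02 points, and 6.08% of genes lay lower.

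The members with the higher upstream CG share differed less from the bulk of genes. HDG3 differed by 35.3 ± 0.909 points and HDG8 by 27.8 ± 1.22 points (SD, n = 4 each), above 89.9% and 86.3% of genes. FIS2 followed with 19.4 ± 4.03 points, MPC with 9.49 ± 1.93 points and HDG9 with 8.06 ± 2.51 points. From HDG3 down to MPC no neighbours in this order overlapped in their libraries. MPC and HDG9 did overlap, and these neighbours in the order could not be told apart by their spread. The order depended on the length of the flank. With flanks of 1 kb the CG difference widened to 76.9 points in HDG3 and 71.4 points in FIS2, was 0 in HDG9, and turned to -1.04 points in HDG8, whose stretch lies no nearer than 1037 bp to the gene start.

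In CHG context the upstream share was higher in all 4 libraries in 3 members (FIS2, HDG3 and HDG8; 21% of all genes) and lower in all 4 in MEA and PHE1 (15.8% of all genes). HDG9 and MPC had libraries on both sides. The MEA difference was -46.7 ± 10.2 points and the PHE1 difference -33.5 ± 4.69 points, while HDG8 had 22.3 ± 3.57 points and FIS2 15.1 ± 1.77 points (SD, n = 4 each). In CHH context 4 members had the higher share upstream in all 4 libraries (21.7% of all genes) and in 3 it was lower in all 4 (MEA, HDG9 and PHE1; 16.3% of all genes). HDG9 had -51.8 and -52.8 points in the SNP libraries and -52.3 and -46.7 points in the mock libraries. Its mean of -50.9 ± 2.86 points was lower than in all but 0.00729% of the 27444 genes, and MEA followed at -22.1 ± 2.21 points. By the share listed, HDG9 therefore had the upstream flank ahead in CG and the downstream flank ahead in CHH. The CG lead rested on 14 or 15 listed of only 18 upstream cytosines and was gone with flanks of 1 kb.

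**Figure D3:**
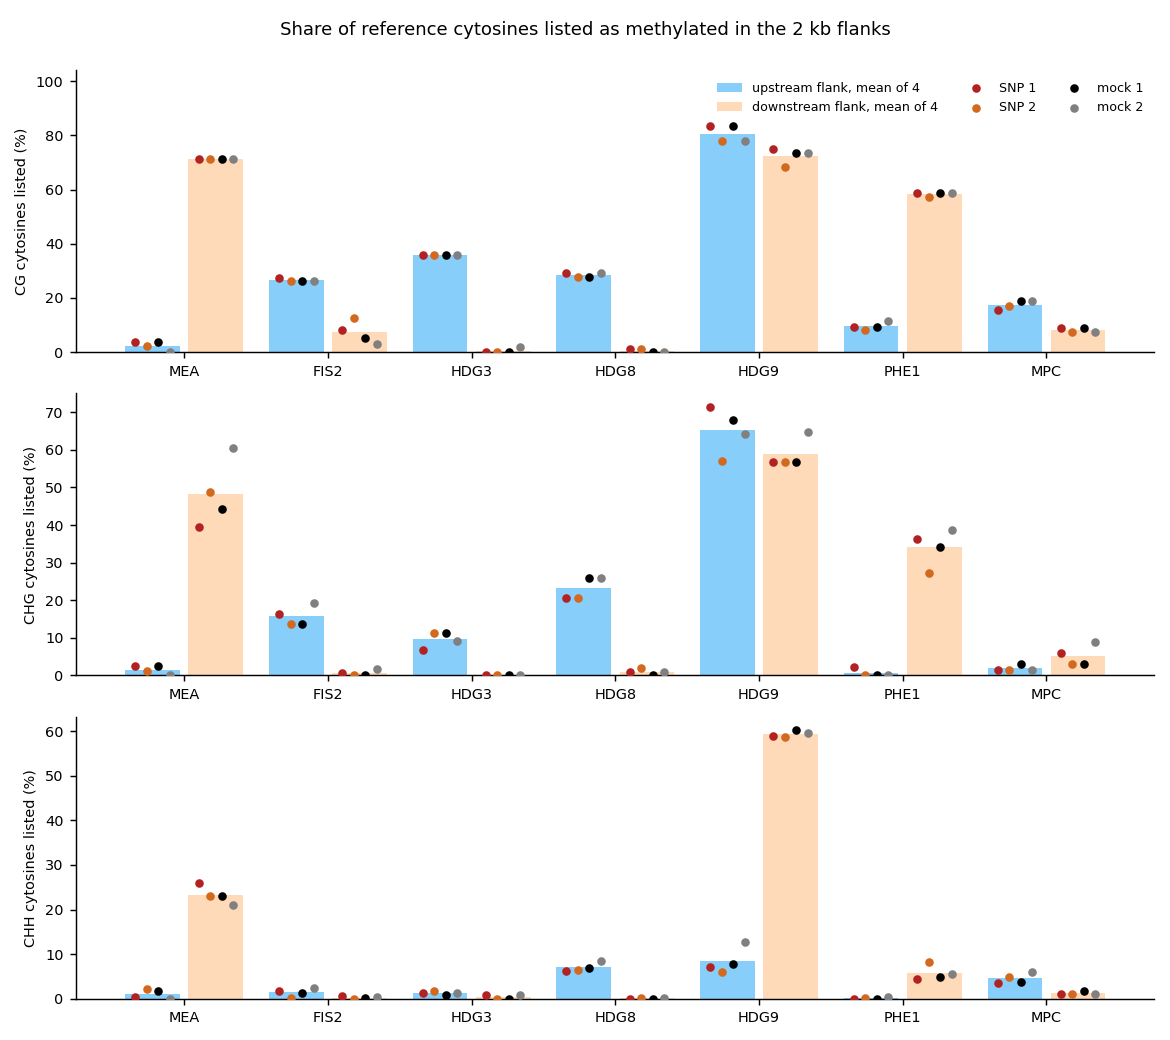
Share in % of the reference cytosines of the 2 kb flanks that were listed as methylated (y axis) for the 7 genes (x axis), with CG, CHG and CHH from top to bottom. Bars are the mean of the 4 libraries, upstream left and downstream right, and points are the libraries. In CG the upstream bar is higher for FIS2, HDG3, HDG8, HDG9 and MPC, and the downstream bar of HDG9 stands at 58.7% to 60.2% in CHH.

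The methylation levels of both flanks could be compared only where each had at least 3 shared cytosines with 5 or more reads in every library. That was the case for HDG9 in all contexts and for PHE1 in CG. For HDG9 the upstream and downstream cytosines numbered 12 and 39 in CG, 9 and 19 in CHG and 7 and 149 in CHH. For PHE1 they numbered 4 and 42, so the upstream levels rest on few cytosines. In CG, upstream levels were higher in all 4 libraries in 28.2% of genes and lower in all 4 in 26.3%, and HDG9 and PHE1 were in neither set, at -5.19 ± 7.19 and -6.53 ± 7.49 points (SD, n = 4 each). HDG9 was lower upstream in every library in CHG, at -9.88 ± 4.38 points, and in CHH, at -15.6 ± 6.7 points (SD, n = 4 each), each with p = 0.125 in the exact sign-flip permutation test. Over all genes the CHG level was higher upstream in all 4 libraries in 30.1% and lower in 30%, and the CHH level in 24.1% and 20.5%.

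A flank with at least 10 CG cytosines shared by all 4 libraries was counted as methylated. By this count 4 members were methylated upstream only (FIS2, HDG3, HDG8 and MPC; 19.5% of all genes), 2 downstream only (MEA and PHE1; 22.8% of all genes), and HDG9 on both sides (20.1% of all genes). Over all genes 39.6% had such an upstream flank, 42.9% such a downstream flank and 62.4% had at least 1 of the 2, so that a methylated flank as such is common. With at least 10 shared CHH cytosines in a flank, 4 of 7 members qualified (MEA, HDG8, HDG9 and MPC), against 20.3% of all genes.

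Further genes were counted for comparison, from lists chosen by name. Among 12 other genes known as imprinted in the endosperm, 9 had at least 1 methylated flank, 3 of them upstream only, 1 downstream only and 5 on both sides. YUC10, an auxin synthesis enzyme, had 57 shared CG cytosines upstream and 76 downstream, and the MADS gene AGL36 had 26 and 83, while VIM5 had none in any part of its locus. FWA, an HD-ZIP IV gene silenced by methylation at its start, had 14 upstream, 42 within the gene and 19 downstream. Of 11 Polycomb partners and enzymes of imprinting, 8 had a methylated flank. DME itself had no shared CG cytosine in either flank and 122 in the gene, and the methyltransferase MET1 had 28 upstream and 37 in the gene. Among 12 other HD-ZIP IV genes 6 had a methylated flank, and ANL2 had 48 CG cytosines downstream and none upstream. PHE2, the close relative of PHE1 annotated as AGL38, had 2 shared CG cytosines downstream and none elsewhere, against 47 downstream of PHE1.

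**Figure D4:**
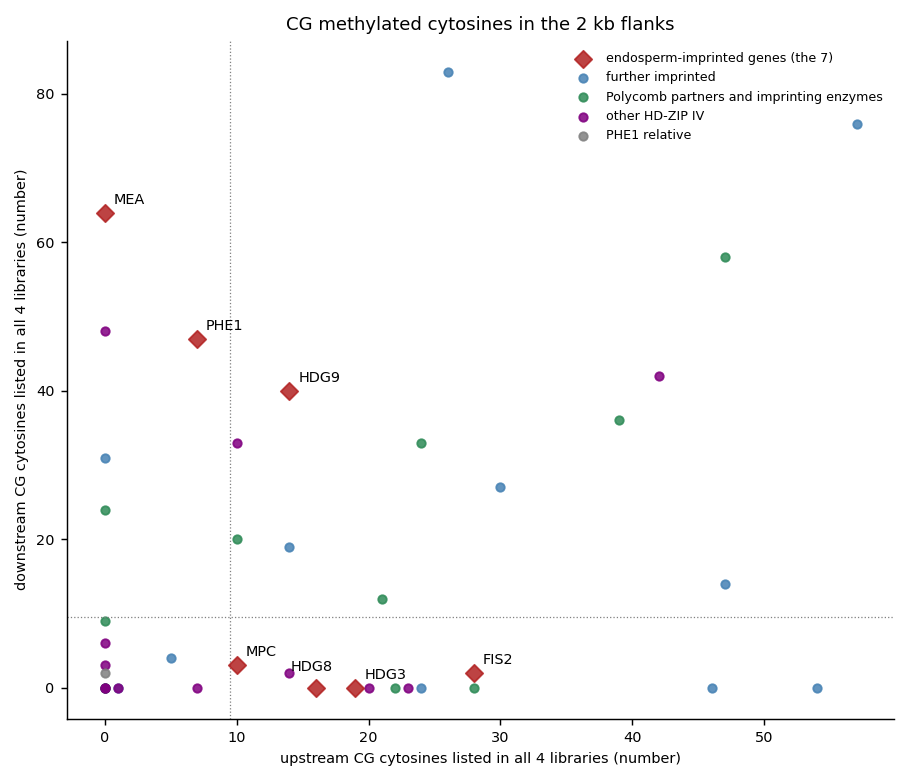
Number of CG cytosines listed in all 4 libraries in the upstream flank (x axis) and downstream flank (y axis) of each gene, as points coloured by list, with dotted lines at the limit of 10 cytosines. MEA (0 and 64) and PHE1 (7 and 47) lie at the upper left, HDG9 (14 and 40) above both lines, and MPC, HDG8, HDG3 and FIS2 at 10 to 28 upstream and at most 3 downstream.

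The gene most like each member was looked up among 27375 other genes by the distance between 9 shares, those of 3 zones (upstream, gene, downstream) and 3 contexts, each the mean of 4 libraries in percentage points. HDG3, with a distance of 2.08 to AT1G16500, FIS2, with 3.12 to AT5G37910, and MEA, with 3.31 to AT5G53592, had close counterparts, as had HDG8 with 4.29 to ATSDI1 (AT5G48850) and PHE1 with 5.35 to AT4G09920. MPC was 11.3 from AT1G20280. HDG9 had no near counterpart: the nearest gene, EHD2 (AT4G05520), was at a distance of 40.0, with 25.3% of its downstream CHH cytosines listed on average, against 59.3% in HDG9.

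SNP was compared with mock by the level over cytosines listed with at least 5 reads in every library, 564 of the 672, summed over each zone. Uncalled cytosines did not enter, so a level is not that of the whole zone. Since a cytosine had to be called in every library to enter, a complete loss does not show in these levels. It could show in the lists, where a missing cytosine was either not covered or not called. There, 37 cytosines of the 7 loci were listed in both SNP and no mock library, and 35 in both mock and no SNP library. In CG the numbers were 4 and 4, in CHG 3 and 5, and in CHH 30 and 26. The share over all genes was not counted, and the SNP libraries had the lower depth at these loci. These counts therefore do not settle whether methylation was lost.

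Of 63 zones by context 27 had at least 3 cytosines and a level of at least 5% and were tested with edgeR's quasi-likelihood test, adjusted by Benjamini-Hochberg over all zones of the context in the genome. No member zone was called at an adjusted p under 0.05. In CG 0 of 12 member zones were called, with adjusted p between 0.280 and 0.916 (edgeR), against 1.59% of all 43228 zones. In CHG 0 of 8 were called, with adjusted p between 0.707 and 0.989 against 0.319% of all zones, and in CHH 0 of 7, between 0.733 and 0.982 against 0% of all zones. Of the 7 whole loci, with all contexts summed, 0 were called, with adjusted p between 0.477 and 0.967 (edgeR) against 3.91% of all loci. Of the 687 CG zones called in the genome 676 were lower in SNP, and no gene of the 7 was among them. With the study's minimum of 10 reads edgeR called 0 of 17213 CG zones, 1613 of which had an unadjusted p under 0.05. Reads were also simulated at the minimum of 5 reads, with each changed zone centred midway between no and full methylation. A change of 30 percentage points was recovered in 25 of 100 CG zones, 67 of 100 CHG zones and 78 of 100 CHH zones. One of 60 points was recovered in 100 of 100 zones of each context. The member CG zones lay above that midpoint. Changes at their levels were not simulated, so these rates do not give the size of change detectable there.

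At an unadjusted p under 0.05, 3 of 12 member CG zones passed in edgeR, against 15.4% of all CG zones, and none of the CHG zones (8.58% of all), CHH zones (7.41% of all) or whole loci (19.4% of all). The FIS2 upstream flank had CG levels of 87.7% and 92.9% in SNP 1 and SNP 2, and 92.5% and 97.1% in mock 1 and mock 2, on 201 to 275 reads. Its treatments overlapped, at a log2 odds ratio of -1.05 (edgeR, adjusted p = 0.280). The HDG9 upstream flank had 92.7% and 90.5% in the SNP libraries, and 77.9% and 88.8% in the mock libraries, without overlap and in the opposite direction, at a log2 odds ratio of 1.07 (edgeR, adjusted p = 0.317). The MPC gene had 72.0% and 53.6% in the SNP libraries, and 75.2% and 82.8% in the mock libraries, at a log2 odds ratio of -1.16 (edgeR, adjusted p = 0.282). The SNP libraries of the MPC gene lay farther from each other than SNP 1 lay from mock 1.

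Among the member zones with enough cytosines for the test, the upstream flank and gene of MPC showed the widest CG differences. Upstream of MPC the CG level was 71.7% and 72.8% in SNP 1 and SNP 2, and 86.0% and 82.7% in mock 1 and mock 2, on 86 to 125 reads and 9 cytosines. The libraries differed by -12.1 points with a pooled replicate SD of 1.75 points, yet in edgeR the adjusted p was 0.333. An exact two-sided permutation test of 2 against 2 libraries cannot go below p = 0.333, the value it gave for every zone without overlap. In the MPC gene the difference was -16.2 points with a pooled SD of 9.93 points. The CHH level upstream of MPC went the other way, with 40.3% and 43.0% in the SNP libraries, and 40.0% and 31.5% in the mock libraries.

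The methylated flanks of MEA and PHE1 had CG levels close to each other in both treatments. Downstream of MEA it was 88.2% and 92.9% in SNP 1 and SNP 2, and 92.4% and 93.2% in mock 1 and mock 2, a difference of -2.2 points with a pooled SD of 2.38 points over 41 cytosines. Downstream of PHE1 it was 83.9% and 84.8% in the SNP libraries, and 87.9% and 84.8% in the mock libraries, a difference of -1.97 points with a pooled SD of 1.61 points over 42 cytosines. The treatments overlapped in both. In the 4 cytosines upstream of PHE1, inside CYP96A3, the CG level was 80.0% and 87.5% in the SNP libraries, and 73.6% and 74.2% in the mock libraries, without overlap on 32 to 62 reads (edgeR, adjusted p = 0.634). The CHG level of the MEA flank was 40.3% and 42.4% in the SNP libraries, and 60.0% and 47.5% in the mock libraries, apart by -12.4 points with a pooled SD of 6.35 points on 67 to 99 reads (edgeR, adjusted p = 0.707). Its CHH level was 36.6% and 40.6% in the SNP libraries, and 42.2% and 36.5% in the mock libraries.

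Of the 14 tested zones of the HDG genes 13 had the lower mean level in SNP and 1, the CG cytosines upstream of HDG9, the higher, with differences from -11.8 to 8.27 points. HDG9 alone gave 9 of the 14 zones, all read in the same 4 libraries. Over all tested zones the log2 odds ratio was below 0 in 72.2% for CG, 45.0% for CHG and 33.2% for CHH. No test was made of this count. Upstream of HDG3 the CG level was 79.5% and 90.6% in SNP 1 and SNP 2, and 82.7% and 90.6% in mock 1 and mock 2, so that the spread within a treatment exceeded the difference of -1.61 points. Upstream of HDG8 the CG level was 96.7% and 97.0% in the SNP libraries, and 96.1% and 98.9% in the mock libraries, near the upper end of the scale. There the CHG level was 72.1% and 72.5% in the SNP libraries, and 80.0% and 78.2% in the mock libraries, -6.74 points with a pooled SD of 0.943 points, and the CHH level was 53.2% and 58.6% in the SNP libraries, and 61.5% and 61.3% in the mock libraries. Neither passed in edgeR, with adjusted p = 0.864 for CHG and adjusted p = 0.866 for CHH. The densely methylated CHH context downstream of HDG9 had the most reads of the member zones, with 1430 to 1762 a library. These reads came from the 149 of 412 CHH cytosines of the flank that entered. The CHH level there was 51.4% and 50.8% in the SNP libraries, and 52.5% and 51.8% in the mock libraries. That is a difference of -1.01 points with a pooled SD of 0.461 points (edgeR, adjusted p = 0.945). In the HDG9 gene the CHH level was 30.9% and 27.8% in the SNP libraries, and 37.2% and 45.2% in the mock libraries, over 6 cytosines only.

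**Figure D5:**
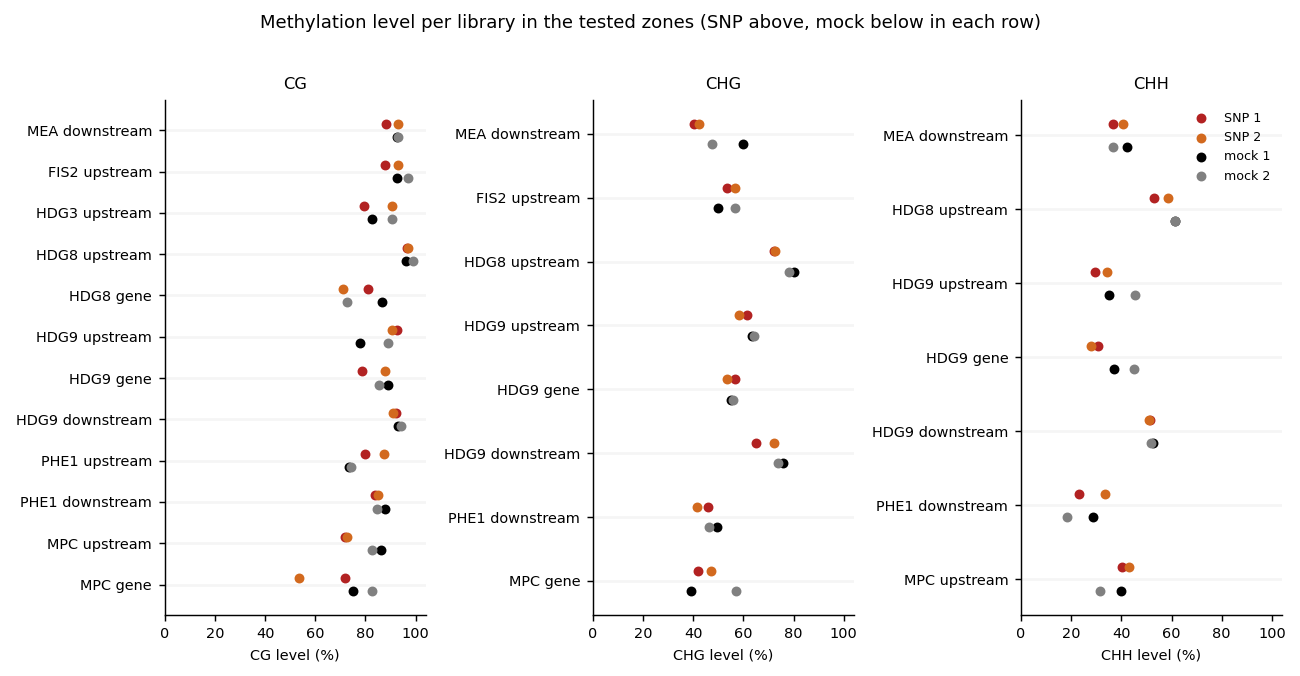
Methylation level in % (x axis) in the 27 tested zones of the 7 genes, CG, CHG and CHH from left to right. Each point is a library, with the 2 SNP libraries above and the 2 mock libraries below in each row. Most CG rows overlap between treatments. The MPC upstream row has both SNP libraries (71.7% and 72.8%) below both mock libraries (86.0% and 82.7%).

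Counted over the tested member zones, both SNP libraries lay below both mock libraries in 3 of 12 in CG (37.7% of all CG zones), in 5 of 8 in CHG (16.5%) and in 4 of 7 in CHH (9.19%). They lay above in 2 of 12 in CG (8.28% of all CG zones), in 0 of 8 in CHG (21.2%) and in 1 of 7 in CHH (28.9%). The median difference over the member zones was -2.15 points in CG, -4.09 points in CHG and -1.01 points in CHH, against -2.39, 0.639 and 2.96 points over all tested zones. Zones of 1 gene share their libraries and neighbouring reads, and 3 of the 5 CHG zones and all 4 CHH zones below were those of HDG8 or HDG9. No test was made of these counts. Over whole loci the largest difference was that of MPC, with 53.6% and 53.1% in SNP 1 and SNP 2, and 59.3% and 58.5% in mock 1 and mock 2 (-5.56 points, pooled SD 0.504 points; edgeR, adjusted p = 0.499).

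Among the comparison lists, whose zones were tested in the same fits, 1 of 49 zones of the other imprinted genes, 1 of 30 of the Polycomb partners and imprinting enzymes and 0 of 27 of the other HD-ZIP IV genes were called. Over all genes 1.59% of CG zones, 0.319% of CHG zones and 0% of CHH zones were called, so that such counts do not set the lists apart. The called zones of the lists were the CG cytosines within the genes FH5, a formin, and CLF, a Polycomb methyltransferase of the plant body. Both were lower in SNP, and they were singled out after their values were seen. FH5 had 79.6% and 77.0% in SNP 1 and SNP 2, and 91.4% and 87.9% in mock 1 and mock 2 (log2 odds ratio -1.27; edgeR, adjusted p = 0.00634). CLF had 87.8% and 91.4% in the SNP libraries, and 94.2% and 94.6% in the mock libraries (log2 odds ratio -0.96; edgeR, adjusted p = 0.0431).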

How the data were processed

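The study prepared EM-seq libraries from sheared DNA of shoot apices, sequenced 75 bp read pairs and extracted methylated cytosines with Bismark, and the submitters' processing notes name FastQC and the build TAIR10; versions, the aligner settings and the rule for calling a site are not given in the sources used here. The authors deposited a list of called cytosines per library, with the methylation level as a fraction and the depth as a count of reads. Methylated reads were recovered as level multiplied by depth, and each listed site had at least 2 of them. A cytosine missing from a list was either not covered or not called.

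Between 99.9998% and 99.9999% of the listed nuclear positions fell on a reference cytosine of the listed context. Gene models, strands and sequences came from the RefSeq copy of TAIR10, and organelles were left out. For each zone (2 kb upstream, gene, 2 kb downstream) and context, the share of reference cytosines listed was counted per library. Levels are methylated reads over all reads of sites listed with at least 5 reads in every library; the study used a minimum of 10 reads, which left 94 of the 672 shared sites of the 7 loci and was an alternative here. Counts of methylated and unmethylated reads were tested with edgeR 4.0.16 (R 4.3.3; quasi-likelihood test, terms for each library) in zones of 3 or more sites with levels from 5%, or loci of 10 or more sites with levels from 1%, over all 27444 protein-coding genes, with Benjamini-Hochberg adjustment per context. The test was tried on simulated reads with 200 changed zones. Copies were found with blastn 2.17.0. All 7 members are named, and other genes by list or by the nearest distance. The members and lists were chosen with earlier results of these data known. Precision rests on 2 libraries per treatment and on about 10 reads a site; reads of PCR copies without molecular identifiers are not independent molecules.

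The alternatives were another minimum depth, no minimum, an upper limit of 50 reads, flanks of 1 kb, the mean of site levels, Fisher's exact test, a replicate block and each library left out. Group labels came from the sample titles.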

Additional observations from a re-analysis of the deposited data

How the results depend on the processing

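No member zone or locus was called by edgeR under any alternative. Fisher's exact test was run on the pooled reads, so its p-values do not measure the spread between libraries. A call in this test also needed treatments without overlap. The test called 3 of 12 member CG zones, against 19.0% of all CG zones. These zones were in MPC (upstream flank, log2 odds ratio -1.01, and gene, -1.19) and in HDG9 (upstream flank, 1.06). The FIS2 upstream flank (-1.08, adjusted p = 0.0241 by Fisher's exact test) overlapped and was not called. Whether replicate numbers pair the libraries is not given by the labels. A correlation by replicate number over zones was 0.00739 in CG, 0.00397 in CHG and -0.00338 in CHH. It does not settle whether the libraries are paired. With the replicate block 820 CG zones, 19 CHG zones, 11 CHH zones and 931 loci of all genes were called by edgeR, and 0 of the members, against 687, 37, 0 and 817 without it. A minimum depth of 10 called 0 CG zones, 0 CHG zones and 12 loci (1613, 269 and 784 at an unadjusted p under 0.05), flanks of 1 kb 410 CG zones and 331 loci, no minimum depth 8 CHG zones, and Fisher's exact test 8228 CG, 473 CHG and 1282 CHH zones and 6075 loci. Leaving out 1 library gave 238 to 715 CG, 0 to 26 CHG and 0 to 7 CHH zones and 122 to 654 loci, with the fewest CG zones without SNP replicate 1.

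Both SNP libraries lay below both mock libraries in 12 of 27 member zones, against 4 at a minimum depth of 10, where fewer zones remained. With a library left out the count was 14 to 17. A treatment then had only 1 library, so that the condition was easier to meet. Shares over all zones were not counted under these alternatives. HDG9 had the downstream level higher in every library in 2 contexts, against 0 at a minimum depth of 10 and 1 with flanks of 1 kb. Uncalled odds ratios near 0 changed sign. At a minimum depth of 10 the log2 odds ratio was 0.57 downstream of PHE1 and 0.63 downstream of HDG9 in CG, and 0.075 over the PHE1 locus. Without a minimum depth it was 0.052 upstream of HDG8 in CG and 0.11 downstream of MEA in CHH, and with flanks of 1 kb 0.041 downstream of HDG9 in CHH. With 1 library left out it ran, in CG, from -0.76 to 0.58 upstream of HDG3, -0.91 to 0.042 in the HDG9 gene, -0.78 to 0.029 downstream of MEA, -1.0 to 0.27 in the HDG8 gene and -1.42 to 0.33 upstream of HDG8. In CHG it ran from -0.10 to 0.28 upstream of FIS2, -0.11 to 0.070 in the HDG9 gene and -0.75 to 0.29 in the MPC gene. In CHH it ran from -0.21 to 0.13 downstream of MEA and -0.047 to 0.78 downstream of PHE1, and over the HDG3 locus from -0.43 to 0.66. Of 147 upstream minus downstream shares under the alternatives 2 changed sign, HDG8 CG with flanks of 1 kb (-1.04) and HDG9 CHG over sites listed in all 4 libraries (-4.92). The causes of these changes were not tested. With about 10 reads a site and 2 libraries per treatment, small changes at single cytosines were not detectable.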
